A study of Arabidopsis thaliana with 44 samples.

Results

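The nuclear photosystem and antenna genes of Arabidopsis thaliana are 45 genes whose proteins are imported into the chloroplast and capture light or carry the electrons that light releases. They were taken from a list of gene identifiers by function. No measured value entered the rule, although earlier results of these data were known when the list was chosen. All 45 of them were found among the 32833 genes of the expression files. The list holds 14 genes of the photosystem II antenna (LHCB), 6 of the photosystem I antenna (LHCA), 5 of the oxygen-evolving complex (PSBO, PSBP, PSBQ), 5 of other photosystem II proteins (PSBR, PSBW, PSBX, PSBY, PSBS), 12 photosystem I subunits (PSAD to PSAO) and 3 electron carriers (PETC, PETE1, PETE2). Transcript levels and m6A (N6-methyladenosine, a methyl mark on adenosines of mRNA) were measured with m6A-SAC-seq, in which the enzyme MjDim1 adds an allyl group to m6A so that the base is misread by reverse transcriptase. Col-0 wild-type plants gave 9 tissues: seedling (day 7) and shoot and root (day 14) from plates, rosette leaf (day 30) from soil, cauline leaf, stem, flower and silique collected after flowering, and dry seed. A second comparison set Col seedlings, whose day the labels do not state, beside mta seedlings of day 8. The mta plants lack the m6A methyltransferase MTA except where a transgene under the promoter of ABI3, active in the embryo, supplies it. Each group had 2 replicates, and each replicate gave 1 treated and 1 untreated input library, 44 libraries in all.

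Light enters the thylakoid membrane through chlorophyll held by LHC proteins. Trimers of LHCB1, LHCB2 and LHCB3 and the linkers LHCB4, LHCB5 and LHCB6 feed photosystem II, which splits water at a manganese cluster shielded by PSBO, PSBP and PSBQ. Electrons then pass through the cytochrome b6f complex, of which PETC is the Rieske iron-sulfur protein, and plastocyanin (PETE) to photosystem I, which LHCA proteins surround and which reduces ferredoxin on its stromal ridge of PSAD and PSAE. Several of these proteins are made from near-identical gene copies, and in plants the genes are known for strong induction by light and in green organs. In mRNA, m6A is mostly placed by the MTA and MTB complex in the motif DRACH near stop codons and in 3'UTRs.

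The m6A sites on which the results below turn lie mainly in 3'UTRs, and each is printed 5′ to 3′ on the transcript strand with the motif around the modified adenosine in capitals and 10 bases on each side of that adenosine. Sequences are from the RefSeq TAIR10.1 genome, whose bases gave the deposited motif at all 187374 nuclear sites compared. The first is the most deeply read site of the set present in all 9 tissues, the next pair are matching sites of the PSAE copies, and the others lost or kept their m6A in mta.
PSBR 3'UTR, chr1:29736858-29736878, plus strand: taaaactcAGACAtactttga
PSAE1 3'UTR, chr4:14202878-14202898, minus strand: cttgacccAAACCgtatgtac
PSAE2 3'UTR, chr2:8737686-8737706, plus strand: cttaaacaAAACCgtatgtac
PSAH1 3'UTR, chr3:5468595-5468615, minus strand: aatactgcAAACCcttttaag
PSBS 3'UTR, chr1:16873253-16873273, plus strand: aaggaaatGGACAgcttaaat
PSBQ2 3'UTR, chr4:2671922-2671942, minus strand: ctttagcaAAACAttatatat
LHCB4.1 3'UTR, chr5:210275-210295, plus strand: ttatgtaaAAACAgagctatg
LHCB4.3 3'UTR, chr2:16747232-16747252, plus strand: tacttcaaAAACTgtataatg
PSBR coding sequence, chr1:29736168-29736188, plus strand: gtcgctcaCAAGAgctcgtcc
The PSAE1 and PSAE2 sites share the run AAACCgtatgtac, and the bases before it differ. The PSBR coding site has a G after its central adenosine, where DRACH and RAC have a C, and so is outside both motifs.

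Input libraries held 3355823 to 6903234 gene counts and treated libraries 10382637 to 14693950. The members took 23.55% and 23.37% of all counts in the rosette leaf input libraries, 15.55% and 16.63% in cauline leaf, 14.67% and 14.16% in stem, 13.79% and 13.55% in seedling, 8.657% and 8.656% in shoot, 7.388% and 7.339% in flower, 6.779% and 6.633% in silique, 0.1366% and 0.1175% in root and 0.02636% and 0.02899% in seed. Replicates of a tissue therefore lay close together, while the tissues spanned nearly all of the range. In the treated seed libraries the member share was 0.112% in replicate 1 and 0.03443% in replicate 2, and leaf marker genes moved with it (184.7 and 36.24 CPM, counts scaled to a common library total), so the seed m6A values, which pool both, rest unevenly on replicate 1. Root and seed storage markers were highest in the tissues they define. The summed level of 3 root markers was 13400 and 13660 CPM in root and 0 in both rosette leaf and cauline leaf libraries. That of 4 seed storage markers was 76750 and 74620 CPM in seed against 0 and 0.7602 in rosette leaf. Other readings were less exclusive. Root markers summed to 709.8 and 716.8 CPM in shoot, and seed markers to 26580 and 25550 and stem markers to 1025 and 1003 in silique. Leaf markers were highest in rosette leaf (50530 and 47850 CPM) but lower in cauline leaf (11120 and 11560) than in flower (11820 and 11870).

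All 45 members were tested and all 45 differed over the 9 tissues by edgeR's quasi-likelihood test (adjusted p under 0.05), as did 99.3% of the 21805 genes tested, so this count says little about them. Per length (RPKM, reads per kilobase of gene, scaled to the library total), 37 members were highest in rosette leaf, 6 in cauline leaf (LHCA2, LHCA3, PSBQ2, PSBR, PSBW and PSAE2), 1 in stem (LHCB1.5) and 1 in silique (LHCB4.3). With the trimmed-mean scaling used in the tests, 42 members were highest in rosette leaf and PSBR alone in cauline leaf, with LHCB1.5 and LHCB4.3 as before, so the cauline leaf list rests on the library total. Of the 7 tissues other than root and seed, silique held the lowest level for 28 members, flower for 8, shoot for 5, cauline leaf for 3 and seedling for 1 (silique 20 and flower 16 with trimmed-mean scaling, the others as before). In bulk tissue, fewer green cells and less RNA per green cell cannot be told apart.

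Single-copy genes of the photosystem II antenna shared the top and bottom of the order of tissues and differed between. LHCB3 (AT5G54270), of the trimers, had 7497 and 7506 RPKM in rosette leaf, 4069 and 4041 in stem, 3547 and 3479 in seedling, 3149 and 3333 in cauline leaf, 1778 and 1736 in silique, 1568 and 1587 in flower, 1298 and 1344 in shoot, 18.92 and 15.01 in root and 0.3375 and 0.7061 in seed, with no overlap between neighbours in that order. LHCB5 (AT4G10340), the linker CP26, had 7629 and 7871 in rosette leaf, 4390 and 4598 in cauline leaf, 4011 and 3955 in seedling, 3847 and 3795 in stem, 2739 and 2936 in shoot, 2314 and 2403 in flower, 2174 and 2129 in silique, 40.35 and 38.53 in root and 4.376 and 5.367 in seed. Both were highest in rosette leaf by a wide margin, and shoot stood below flower for LHCB3 and above it for LHCB5.

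In the oxygen-evolving complex PSBO1 (AT5G66570), the main manganese-stabilising gene, had 5298 and 5065 RPKM in rosette leaf, 3994 and 4284 in cauline leaf, 1629 and 1620 in silique, 52.41 and 48.65 in root and 0.6949 and 0.5816 in seed. Its copy PSBO2 had 1693 and 1676, 902.5 and 967.8, 555.8 and 542, 17.7 and 16.16, and 0.7897 and 0 in the same tissues, and was thus the lower copy in each but seed, where the libraries of the pair overlapped. PSAL (AT4G12800), part of the docking surface for LHCII on photosystem I, had 6270 and 5735 in rosette leaf and 5268 and 5912 in cauline leaf, which overlapped, and 1619 and 1539 in silique. PETC (AT4G03280) spanned 1761 and 1854 in rosette leaf to 658.6 and 657.6 in flower, with 26.97 and 30.39 in root and 10.34 and 10.61 in seed, so its seed level was above those of PSBO1 and LHCB3.

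**Figure D1:**
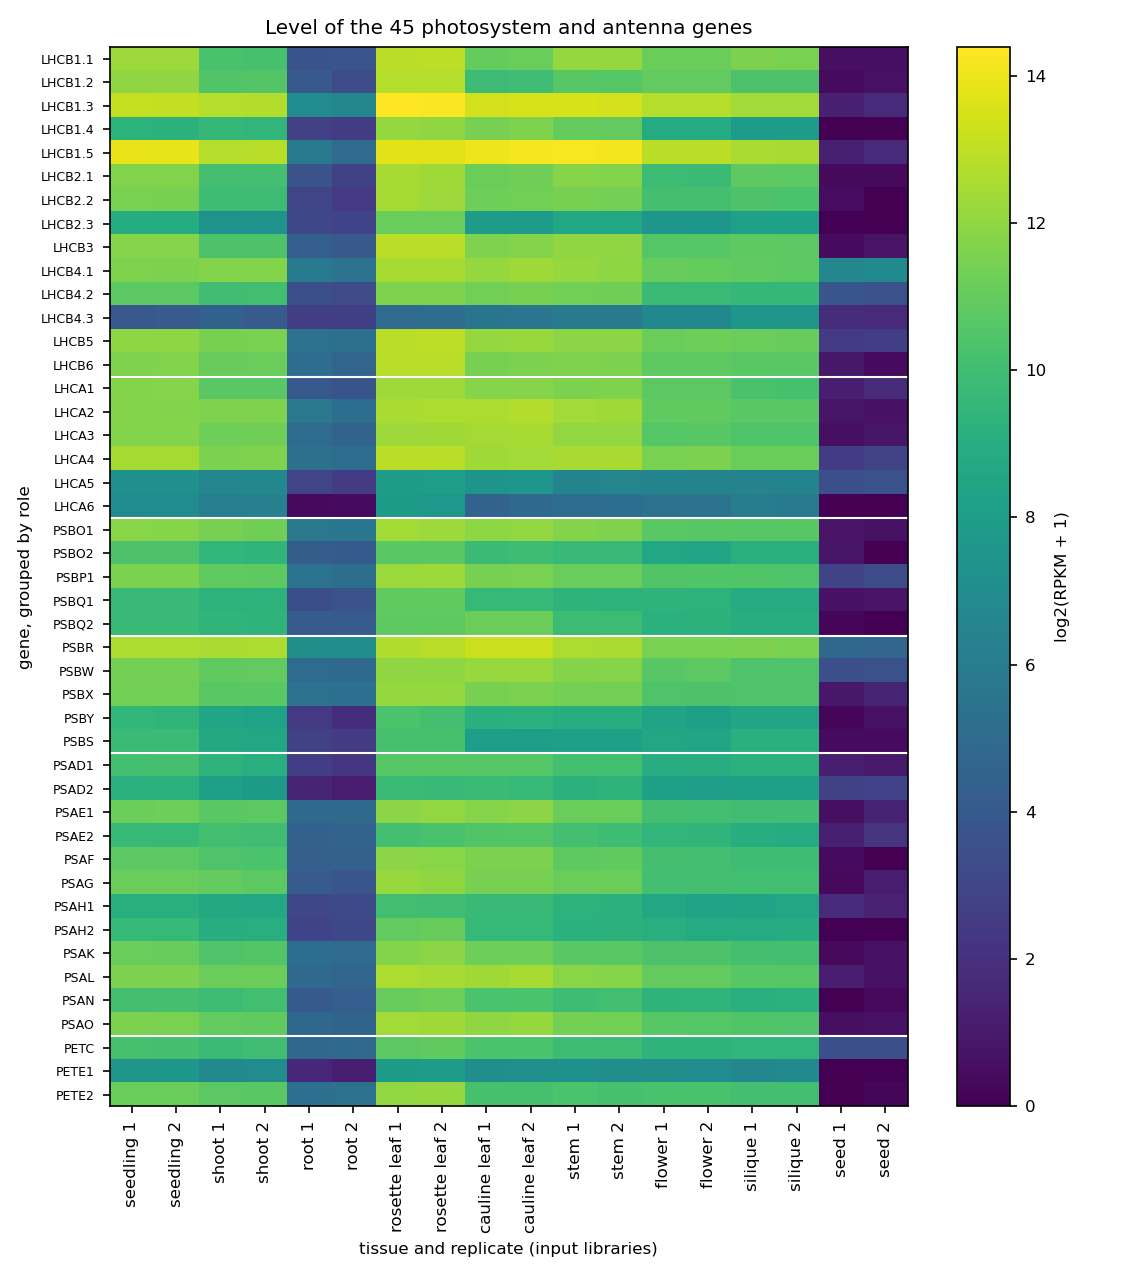
Level of each of the 45 genes (log2 of RPKM plus 1, colour) in the 18 input libraries of the 9 tissues, with genes grouped by role and white lines between roles. Rosette leaf columns are brightest in most of the genes, root and seed columns are dark, and LHCB4.3 is the row that brightens toward silique.

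Root against shoot asks how far the genes are off in a non-green organ of plants of the same age. All 45 members were lower in root (at least 2-fold, edgeR adjusted p under 0.05), where 20.7% of all genes tested were called lower, and the median log2 difference was -6.07 (median of all genes 0.00). LHCA6 (AT1G19150), which with LHCA5 (AT1G45474) joins photosystem I to the NDH complex, had 2 counts in each root library, and its level fell from 71.38 and 75.18 RPKM in shoot to 0.2888 and 0.345 in root (log2 -7.69 ± 0.241 SE). PSAD2 (AT1G03130), a copy of the ferredoxin-docking subunit, stood at 290.9 and 228.8 RPKM in shoot and 1.755 and 1.258 in root (log2 -7.32 ± 0.153). LHCB2.2 (AT2G05070), of the trimeric antenna, had 970.3 and 928.4 RPKM in shoot and 7.047 and 4.209 in root (log2 -7.30 ± 0.106). Shoot and root libraries did not overlap in any of these.

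The smallest drops belonged to antenna genes too. LHCB4.3 (AT2G40100), a divergent copy of the linker CP29, had 21.1 and 16.37 RPKM in shoot and 5.331 and 5.399 in root (log2 -1.74 ± 0.173, edgeR adjusted p = 2.69e-23, the largest of the 45), LHCA5 96.4 and 105.7 against 7.051 and 4.679 (log2 -4.02 ± 0.133), and LHCB2.3 160.5 and 162.3 against 7.789 and 6.431 (log2 -4.43 ± 0.11). All 3 were low in shoot beside their families. By role the median log2 difference was -6.35 for the photosystem II antenna, -6.40 for the photosystem I antenna, -5.49 for the oxygen-evolving complex, -6.07 for photosystem I subunits and -5.39 for the carriers. The summed leaf markers fell alongside, from 13180 and 12620 CPM in shoot to 194.4 and 161.4 in root, with none of the 3 at 0, and their part in the result was not tested.

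Genes that act beside the members went the same way in root. All 12 chlorophyll synthesis genes were called lower (median log2 -4.83), among them PORA, a light-dependent protochlorophyllide reductase, at -8.86 and HEMA1, which starts the tetrapyrrole pathway, at -1.32. Of 8 regulators, 6 were lower and 1 higher: GLK1, an activator of photosystem genes, changed by -7.84, whereas HY5, a light-signalling factor also active in roots, changed by 2.34 and COP1 by -0.06 (edgeR adjusted p = 0.711). The 5 genes for antenna insertion and phosphorylation (median -3.13) and the 4 ferredoxin and FNR genes (median -4.55) were all called lower.

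Seed against silique sets the dry seed beside the organ in which it forms. All 45 members were lower in seed (background 42.7% of genes lower), with a median log2 difference of -9.83 against -0.77 for all genes. The genes LHCB1.4, LHCB2.3, LHCA6, PSAH2 and PETE1 had 0 counts in both seed libraries. A floor of 3 counts over both libraries put LHCB2.3 at least 1370-fold, PSAH2 (a docking subunit for LHCII on photosystem I) at least 1020-fold, LHCB1.4 at least 1010-fold, PETE1 at least 344-fold and LHCA6 at least 227-fold lower than in silique. Another 6 members had 1 to 3 counts over both libraries together, and 5 had over 100 (LHCB4.1, PSBR, LHCB4.2, LHCA5 and PETC).

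Those 5 included LHCB4.1 (AT5G01530), the main CP29 gene, with 656 and 714 counts, or 98.48 and 112.1 RPKM in seed against 1845 and 1766 in silique (log2 -3.24 ± 0.0674). PSBR (AT1G79040), a small photosystem II subunit near the oxygen-evolving complex, kept 100 and 88 counts, and LHCA5 54 in each library (10.57 and 11.05 RPKM in seed, 86.3 and 90.12 in silique, log2 -2.16 ± 0.13, edgeR adjusted p = 2.46e-61, the smallest drop). In seed LHCA5 was the highest LHCA gene, above LHCA4 (4.855 and 6.772), whereas in green tissues it was among the lowest. PSAD2 retained 28 in each library (log2 -4.65 ± 0.129), and its ratio to its copy PSAD1 was reversed in seed: PSAD1 had 1.294 and 0.9667 RPKM there and PSAD2 6.138 and 6.422, while in silique PSAD1 was the higher. LHCB4.1 took 85.7% and 89.4% of the summed LHCB4 RPKM in seed, beside 65.9% and 65.0% in silique. Leaf markers summed to 19.91 and 25.21 CPM in seed (1 of the 3 at 0 in each library), against 14670 and 14400 in silique.

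The leaf comparison, cauline leaf from flowering plants against rosette leaf of day 30, showed 21 members lower in cauline leaf and 0 higher (edgeR), with 19.2% of all genes lower and 17.6% higher. The median log2 difference of members was -0.93. The calls fell on 9 of 14 photosystem II antenna genes, 3 of 5 oxygen-evolving genes, 3 of 5 other photosystem II genes, 3 of 12 photosystem I subunits, 1 of 6 photosystem I antenna genes and 2 of 3 carriers. LHCB2.3 changed from 2210 and 2237 RPKM in rosette leaf to 242.3 and 243.5 in cauline leaf (log2 -3.58 ± 0.0582), LHCA6 from 227.5 and 203.5 to 22.19 and 29.75 (log2 -3.51 ± 0.087) and LHCB1.2 from 7079 and 7000 to 919.9 and 1001 (log2 -3.26 ± 0.058). PSBS (AT1G44575), which triggers the shedding of excess light energy as heat, stood at 1177 in both rosette leaf libraries and at 266.9 and 271.9 in cauline leaf (log2 -2.51 ± 0.0562), and PETE2 (AT1G20340), the abundant plastocyanin, at 4321 and 4424 against 1160 and 1165 (log2 -2.30 ± 0.0551).

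At the other end, LHCB4.3 (log2 0.17 ± 0.0995), PSBR (0.11 ± 0.0532) and LHCB1.5 (0.00 ± 0.0554) did not pass the test. LHCB4.3 had 31.65 and 33.78 RPKM in rosette leaf and 47.42 and 48.77 in cauline leaf, PSBR 6435 and 7347 against 9605 and 9776, and LHCB1.5 13620 and 13480 against 16540 and 18860, so that these libraries do not overlap on the RPKM scale although the scaled fit found no difference. With library totals in place of the trimmed-mean scaling 13 members rather than 21 were lower (14% of all genes), and without the 2-fold minimum 40 were (28.8% of all genes). The chlorophyll synthesis list held 10 of 12 lower and 2 higher, both chlorophyll breakdown genes (NYC1 and SGR1) were higher with a median of 3.28, and the leaf markers were 3 of 3 lower (50530 and 47850 CPM in rosette leaf, 11120 and 11560 in cauline leaf). The part of leaf age or growth stage was not tested.

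Shoot against seedling compares day 14 with day 7 on plates. In shoot 14 members were lower and 0 higher (background 11.3% lower and 5.48% higher), and the median log2 difference was -0.76. The trimeric antenna led: LHCB1.1 had 5010 and 4936 RPKM in seedling and 1200 and 1183 in shoot (log2 -2.26 ± 0.0566), LHCB2.2 2902 and 2782 against 970.3 and 928.4 (log2 -1.78 ± 0.0553) and LHCB2.3 473.5 and 482.4 against 160.5 and 162.3 (log2 -1.76 ± 0.0602). PSAE2 (849.8 and 799.9 in seedling, 1041 and 999 in shoot, log2 0.11), LHCB4.3 (14.16 and 16.75 against 21.1 and 16.37, log2 0.08) and LHCB1.4 (627.5 and 615.2 against 767.4 and 709.4, log2 0.05) did not pass the test. By role, 7 of 14 photosystem II antenna genes were lower but 0 of 3 carriers. Without the fold minimum 41 members were called lower (25% of all genes). Seedlings also had more of the root markers (2869 and 2944 CPM against 709.8 and 716.8 in shoot), of the seed markers (296.2 and 294.2 against 29.69 and 23.28) and of the leaf markers (27320 and 26860 against 13180 and 12620), and the part of these differences was not tested.

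Each tissue was also set against the mean of the other 8 in the same fit, so the contrasts share libraries. Higher members numbered 44 in seedling (background 21.6%), 34 in shoot (16.4%), 44 in rosette leaf (18.4%), 45 in cauline leaf (17.0%), 44 in stem (18.2%), 24 in flower (23.9%) and 28 in silique (25.0%), and lower members 40 in root (14.6%) and 45 in seed (34.8%). The counts nearest the background moved most: treated libraries gave 18 in shoot (15.4%), 4 in flower (24.3%) and 10 in silique (25.1%), library totals 38 in flower (33.1%), and no fold minimum 44 in flower (41.5%) and 44 in silique (42.5%). LHCB4.3 was called lower in seedling (log2 -1.09, background 2.81%), and 0 members were called lower in shoot (background 3.46%), stem (6.95%), flower (4.85%) and silique (4.76%). Because root and seed lie so far below the rest, the 7 remaining tissues were then compared among themselves, each with the mean of the other 6, a comparison added after the data had been seen.

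Among those 7 tissues, rosette leaf held 43 members higher and 0 lower (background 12.8% higher), led by LHCB2.3 (log2 3.67 ± 0.0331), LHCB1.4 (3.02 ± 0.0335) and LHCB1.2 (2.69 ± 0.0337), while LHCB4.3 was at 0.01 ± 0.0786. Flower had 30 lower (background 9.0%) and 0 higher (19.8%), with LHCB2.1 at -1.82, LHCB1.4 at -1.70 and PSBO2, the second manganese-stabilising gene, at -1.69, and silique 24 lower (background 8.95%) and 1 higher (21.3%). Shoot had 12 lower (background 5.76%), cauline leaf 13 higher (12.8%) and 2 lower (16.7%), stem 2 higher (14%), LHCB1.4 at 1.27 and LHCB1.5 at 1.02, and seedling 1 higher (13.8%), LHCB1.2 at 1.00, and 1 lower (3.71%), LHCB4.3 at -2.01. The cauline leaf list opened with LHCB1.4 (1.94), PSBQ2 (1.71) and LHCA3 (1.27), and its lower pair were LHCA6 (-1.43) and LHCB1.2 (-1.11). Scaling to library totals cut the flower count from 30 to 9 (background 5.98%), the silique count from 24 to 15 (7.11%), the shoot count from 12 to 7 (3.3%) and the cauline leaf count from 13 to 5 (10.2%).

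LHCB4.3 parted most from the rest. Its level was 197.1 and 192.4 RPKM in silique, 104.1 and 102.2 in flower, 57.73 and 60.83 in stem, 47.42 and 48.77 in cauline leaf, 31.65 and 33.78 in rosette leaf, 21.1 and 16.37 in shoot, 14.16 and 16.75 in seedling, 5.331 and 5.399 in root and 2.75 and 2.423 in seed. No neighbours in that order overlapped except shoot and seedling. In silique it was higher than the mean of the other 6 by 2.22 ± 0.0501 on the log2 scale, the only member called higher there. LHCB4.1 was at its highest in rosette leaf (5785 and 5722) and at 1845 and 1766 in silique, and LHCB4.2 fell from 3113 and 3103 to 758.2 and 758.8. LHCB4.3 thus made up 7.04% and 7.08% of the summed LHCB4 RPKM in silique, 3.37% and 3.39% in flower and 0.354% and 0.381% in rosette leaf. Its coding sequence is 67.7% identical to LHCB4.1 and 69.0% to LHCB4.2, which are 81.7% identical to each other. Over the 7 tissues other than root and seed its log level and the median of the members had a Pearson correlation of -0.507, given as a description of 7 tissues that share no library.

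**Figure D2:**
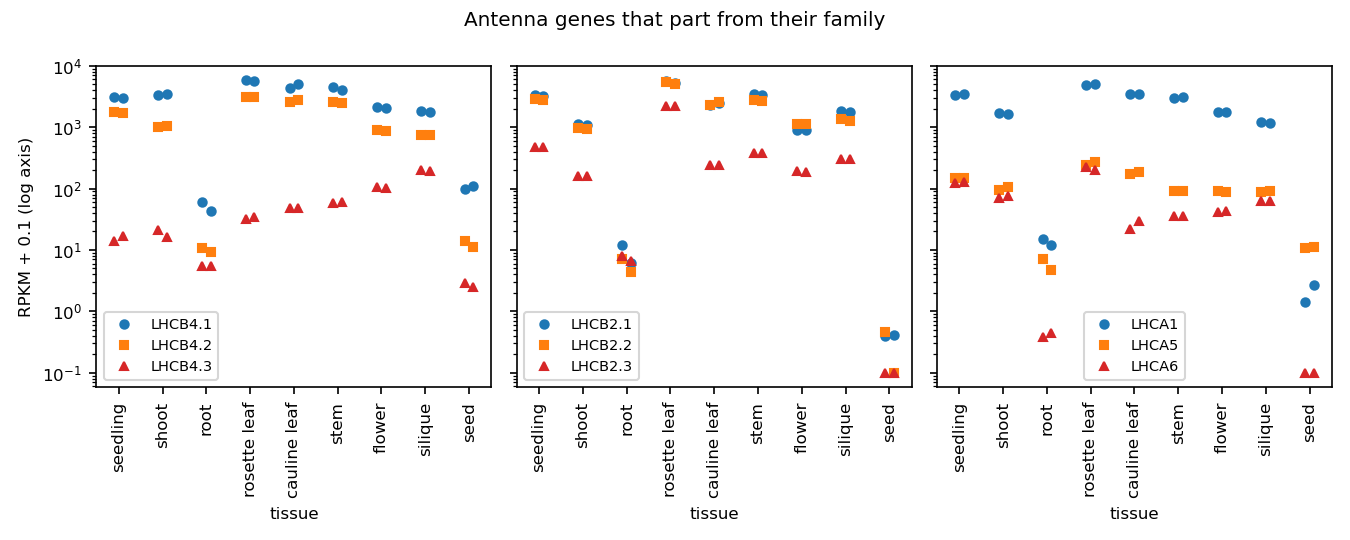
RPKM plus 0.1 on a log axis for the LHCB4 genes, the LHCB2 genes and LHCA1, LHCA5 and LHCA6, with 1 point for each of the 2 input libraries of a tissue. LHCB4.3 climbs to 197.1 and 192.4 RPKM in silique while LHCB4.1 and LHCB4.2 peak in rosette leaf, and LHCB2.3 and LHCA6 have 0 counts in both seed libraries.

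The copies of LHCB1 and LHCB2 also differed in where they were read. LHCB1.3 was the largest in rosette leaf (21440 and 20280 RPKM), whereas LHCB1.5 had 13620 and 13480 there and rose to 19460 and 17840 in stem, although its cauline leaf values (16540 and 18860) overlapped those of stem. LHCB1.4 ranged from 4470 and 4120 in rosette leaf and 2784 and 3118 in cauline leaf to 461.7 and 464.2 in flower and 247.1 and 245.8 in silique, and so from 8.23% and 7.82% of the summed LHCB1 RPKM in rosette leaf to 1.54% and 1.58% in silique. LHCB2.3 made up 16.4% and 17.9% of the summed LHCB2 RPKM in rosette leaf, 5.0% and 4.63% in cauline leaf and, at far lower levels, 29.0% and 38.3% in root. LHCB1.1, LHCB1.2 and LHCB1.3 are 95.7% to 96.4% identical in coding sequence, and LHCB1.4 and LHCB1.5 are 86.8% to 91.6% identical to the others of the family, so how reads were shared among LHCB1 copies is uncertain.

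Outside the LHC families, PSBQ2 and PSAE2 had another top tissue than their copies on the RPKM scale, but with trimmed-mean scaling all 4 genes were highest in rosette leaf. In that fit of cauline against rosette leaf PSBQ2 was at -0.02 and PSBQ1 at -1.62, and PSAE2 at -0.06 and PSAE1 at -0.56. PSBQ2 (AT4G05180), an extrinsic protein of the oxygen-evolving complex, had 2320 and 2326 RPKM in cauline leaf and 1812 and 1792 in rosette leaf, and PSBQ1 786.5 and 804.6 against 1883 and 1860. PSBQ2 therefore took 74.7% and 74.3% of the summed PSBQ RPKM in cauline leaf and 49.0% and 49.1% in rosette leaf. PSAE2 had 1417 and 1498 in cauline leaf and 1099 and 1221 in rosette leaf, where PSAE1 had 3449 and 3748 and 3857 and 4301. LHCA5 and LHCA6 stayed the lowest of the LHCA genes in green tissues, LHCA5 at 246.3 and 269.3 and LHCA6 at 227.5 and 203.5 in rosette leaf, beside 4898 and 5054 for LHCA1.

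Promoters of all 45 members, 250 bases before to 50 after the start of the RefSeq TAIR10.1 gene, were searched on both strands and read against 27444 promoters of the same length. CACGTG, the G-box, was found in 14 members (31.1%, against 7.68% of all promoters) and GATAAG, the I-box, in 20 (44.4% against 14.6%). The CCA1 binding motifs AAAAATCT and AACAATCT were in 6 (13.3% against 7.88%) and 2 (4.44% against 2.24%), and TATAAA in 22 (48.9% against 52.1%). LHCB4.3, LHCA5 and LHCA6 had TATAAA but neither G-box nor I-box in this window.

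The site table listed 370 sites in the 45 genes, and 357 of them carried the calling mark of the authors at a depth of 20 reads or more in at least 1 tissue. Of these, 156 were in coding sequence (43.7%, all genes 60.2%), 142 in 3'UTRs (39.8%, all genes 34.8%), 25 in introns (7.0%, all genes 0.395%), 18 in 5'UTRs (5.04%, all genes 2.8%) and 12 at splice sites (3.36%, all genes 0.211%). The 3'UTR sites lay 2 to 240 bases past the stop codon with a median of 88.5. Members shared sites across tissues more often than genes at large did: 153 (42.9%) were found in 5 or more tissues, against 17.1% of the sites of all genes, and 110 (30.8%) in a single tissue against 53.1%. Median depth at member sites was 5576 reads in seedling against 82 at the sites of all genes, and that difference in depth moves with the sharing, whose dependence on it was not tested.

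By tissue, silique had 266 m6A sites in members, cauline leaf 230, seedling 202, shoot 188, flower 176, stem 147, rosette leaf 114, root 77 and seed 24. These counts rest on the calling mark, whose rule the files do not give. When sites needed only 20 reads and a fraction above 0.05, marked or not, the 7 tissues other than root and seed were nearly level, from 326 in rosette leaf to 341 in seedling, with 186 in root and 69 in seed. No order among those 7 tissues is read from them. By role, and again counted with the mark, the oxygen-evolving genes had 12 sites per gene, the photosystem I antenna 9.67, the other photosystem II genes 8.2, photosystem I subunits 7.5, the photosystem II antenna 6.36 and the carriers 6.33.

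Single genes differed widely in the m6A summed over their marked sites. Only sites with the calling mark entered, so an unmarked site counted as 0. LHCB1.4, for example, summed to 0 in root, rosette leaf, stem and flower and to 0.222 in seedling. How far the order of genes rests on the mark was not tested. The fractions summed over the sites of a gene had a median over 8 tissues (seed left out) of 4.26 in LHCA5, 4.18 in PSAH1 and 4.07 in PSBS, and of 0.053 in LHCB1.4, 0.114 in PSAD1 and 0.196 in LHCB2.3. Copies within a family were far apart as well: PSAH1 had 10 sites, 9 of them in its 3'UTR, and a summed fraction of 4.18, and PSAH2 had 8 sites and 1.12. In PSAD the low copy PSAD1 (0.114) stood beside PSAD2 at 0.508. The abundant LHCB1.3 and LHCB1.5 had low sums, 0.238 and 0.295.

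The same 3'UTR sites were then followed across tissues. In 31 members 69 sites had 20 or more reads in all 8 tissues other than seed and were m6A sites in at least 5. Their median fraction was 0.182 in rosette leaf and, in the other tissues, 0.285 in seedling, 0.309 in stem, 0.349 in shoot, 0.352 in silique, 0.354 in cauline leaf, 0.376 in root and 0.378 in flower. Rosette leaf was below the median of the other 7 tissues at 63 of 69 (91.3%, against 52.7% of 12717 sites of all genes) and was the lowest of 8 at 49 (71.0%, against 19.7%). The median ratio of rosette leaf to the median of the others was 0.582 in members and 0.977 in all genes. A call in rosette leaf was not required, and only 53 member 3'UTR sites carried the mark there. Some of the 69 therefore entered through other tissues, a selection that favours low values in rosette leaf. The sites of all genes were chosen by the same rule, and the part of the rule was not tested. Each tissue has 1 pooled value per site, so no test over replicates was possible. The 2 treated rosette leaf libraries, which these values pool, had gene counts that differed more than those of any other tissue (chi-square of 5.765 per degree of freedom, against 1.16 to 2.585 elsewhere), and the part of this was not tested.

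Depth differed with it. Rosette leaf had a median of 10734 reads at these member sites, root 108 and the other tissues 2631 to 5456. At sites with 1000 or more reads in rosette leaf, the members (67 sites) still had a median ratio of 0.582 with 91.0% below the other tissues, and 326 sites of other genes had 0.809 with 79.8% below. At 63 common coding sites, chosen by the same rule, the ratio of rosette leaf was 0.682 in members and 0.688 in all genes. That of root was 0.582 and 0.545. Only 39 member coding sites carried the mark in rosette leaf and 21 in root. Coding fractions of members were highest in silique (median 0.207), above cauline leaf (0.185), shoot (0.172), seedling (0.171), flower (0.169), stem (0.136), rosette leaf (0.118) and root (0.102).

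**Figure D3:**
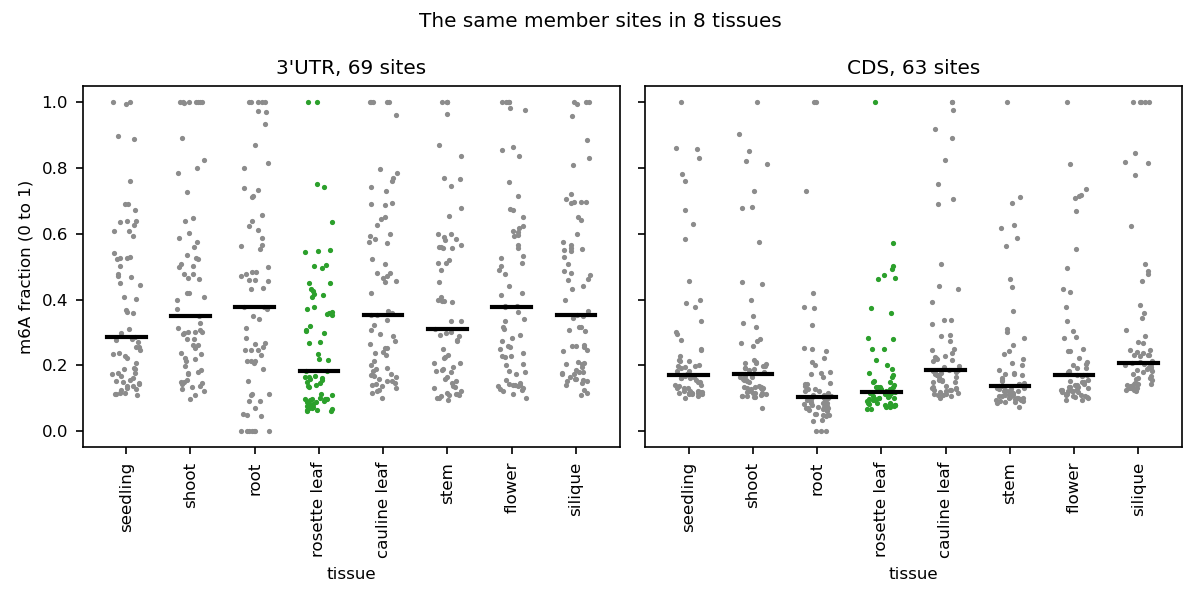
The m6A fraction (0 to 1) of 69 3'UTR sites and 63 coding sites of the members in 8 tissues, 1 point per site and a bar at the median. In 3'UTRs the rosette leaf bar (0.182, green points) is the lowest of the 8, and in coding sequence root (0.102) and rosette leaf (0.118) are both low.

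There were 11 member sites with m6A in all 9 tissues, 3 in LHCB4.1, 2 each in PSBP1, PSBR and PSBW and 1 each in PSBQ1 and PETC, and 10 of the 11 were in 3'UTRs. They were 11 of 357 member sites, beside 6357 of 169934 sites of all genes, so their number does not set the members apart. At 10 of the 11, rosette leaf was the lowest of the 8 tissues other than seed. How often this held at such sites of all genes was not counted. The PSBR site printed first had a fraction of 0.76 in seedling, 1 in shoot, 1 in root, 0.546 in rosette leaf, 0.77 in cauline leaf, 0.838 in stem, 0.983 in flower, 0.996 in silique and 1 in seed, with 282 reads in seed and 613 or more elsewhere. Only rosette leaf was below 0.7 there. At the LHCB4.1 site printed above the fractions were 0.409 in seedling, 0.502 in shoot, 0.74 in root (132 reads), 0.271 in rosette leaf, 0.523 in cauline leaf, 0.407 in stem, 0.491 in flower, 0.481 in silique and 0.445 in seed (339 reads).

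The PSAE copies showed how far matching sites can differ. At the shared AAACCgtatgtac run PSAE2 was read at 0.995 in seedling, 1 in rosette leaf, 0.97 in root and 0.81 in silique, and PSAE1 at 0.609, 0.414, 0.657 and 0.696 in the same tissues. PSAE2 was the higher copy in each of these 4, and its rosette leaf value was not low. Over the 8 tissues in which each site was called, the mean fraction was 0.972 in PSAE2 and 0.689 in PSAE1. The remaining tissues are not listed here. The PSBS site GGACA was at 1 in 7 tissues and at 0.817 in root on 40 reads. PSAH1 at its AAACC site had 0.752 in rosette leaf, 0.898 in seedling and 0.965 to 1 in shoot, cauline leaf, stem, flower and silique, while LHCB4.3 at AAACT had 0.497 in rosette leaf and 0.692 in seedling on 77 reads.

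Not every site with a high fraction had a methylation motif. Of the 12 sites with the highest mean fraction among those in 5 or more tissues, 4 were at splice sites (LHCA2, LHCB2.2, LHCB6 and PSBW, all ending in AGG, on 21 to 385 reads where called) and 1 was the PSBS coding site TTAGC, read as 1 in each of 8 tissues on 65 to 8192 reads. The LHCA5 3'UTR site ATACC (mean fraction 0.97) has a T before its central adenosine and so is outside DRACH and RAC too. Among the member sites, 56.3% had a DRACH or RAC motif, and 50.4% of those of all genes.

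In the mta seedlings MTA itself, the targeted gene, had 3.742 and 2.976 TPM (transcript levels scaled to a common total per library) against 5.942 and 5.994 in Col (log2 -0.68, limma adjusted p = 0.0375). The genotypes did not overlap, but the call was lost with replicates as a block (adjusted p = 0.0826), with a pseudocount of 0.1 (0.0533) and without a filter on low values (0.0627). At 127 member sites used in this comparison and read in the seedling tissue series too, Col and the day 7 seedlings had fractions with a Pearson correlation of 0.915, a description over sites of 2 pooled samples. A site was used if it had 20 or more reads in both genotypes and a fraction of at least 0.1 in Col, which left 136 sites in all 45 genes.

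At the sites used, the m6A fractions of members in mta were mostly lower in 3'UTRs and mostly higher in coding sequences. The minimum fraction was set in Col and not in mta, a selection that favours lower values in mta. Most of the member 3'UTR sites that it left out, at the same minimum of reads, were higher in mta. The sites of all genes were chosen by the same rule, and the part of the rule was not tested. Of 59 3'UTR sites in 30 genes, 52 were lower in mta (88.1%, against 74.4% of 11154 sites of all genes) and 35 were at 2/3 or less of Col (59.3% against 48.8%), and the median fraction went from 0.367 to 0.199. Of 56 coding sites in 33 genes, 7 were lower (12.5% against 57.3%) and 45 higher, 1 was at 2/3 or less (37.7% of all genes), and the median ratio of mta to Col was 1.1. The contrast with all genes depended on depth, which was far greater in members. At 1000 or more reads in both genotypes 89.8% of member and 89.1% of all 3'UTR sites were lower, and 7.84% of member and 20.8% of all coding sites were, with a median coding ratio of 1.1 in members and 1.11 in all genes. The sets of all genes hold the members too, with 49 of 229 3'UTR sites and 51 of 342 coding sites. Replicates were pooled by the authors, so these counts carry no test.

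**Figure D4:**
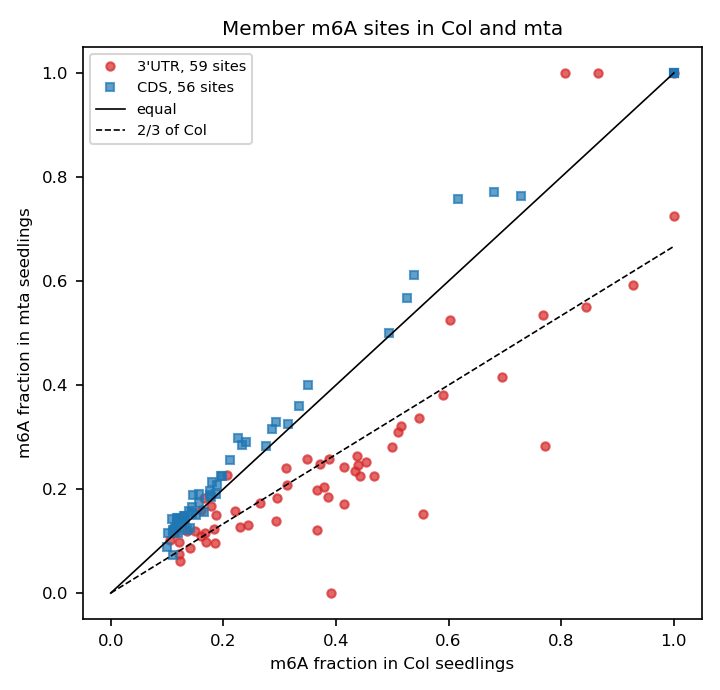
m6A fraction in mta seedlings against Col seedlings at 59 3'UTR sites (circles) and 56 coding sites (squares) of the members, with lines of equality and of 2/3 of Col. Most 3'UTR sites lie below the line of equality and 35 on or below the dashed line, while 45 coding sites lie above equality.

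Gene by gene the split was the same. Summed 3'UTR fractions were lower in mta in 28 of 30 members (23.07 to 15.46 over all) and summed coding fractions higher in 29 of 33 (15.43 to 16.62), and of the 19 members with sites in both regions 17 showed both. The sums rest on the same sites, chosen by their fraction in Col. Such counts of genes were not made for all genes, so they do not set the members apart. At the deeply read sites above, the share of 3'UTR sites lower and the coding ratio were near those of all genes. The share of coding sites lower was smaller in members. The largest drop was at a splice site of PSAK, a photosystem I subunit, with the motif TTAGT outside DRACH, from 1 to 0.238 on 101 and 93 reads. Next came the PSBQ2 site AAACA, from 0.771 to 0.282 (363 and 439 reads). PSBS GGACA went from 0.928 to 0.593, PSAE2 AAACC from 0.844 to 0.55, PSAE1 AAACC from 0.438 to 0.263, PSAH1 AAACC from 0.694 to 0.415, the 3'UTR site of PSBR from 0.767 to 0.534 and that of LHCB4.1 from 0.516 to 0.321. LHCA5 had 3 of the 5 largest drops, a 3'UTR site AAATT from 0.555 to 0.153 (170 and 202 reads), a 3'UTR site GTACA from 0.391 to 0 (95 and 112 reads) and an intronic site AAACT from 1 to 0.515 (30 and 31 reads).

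Some sites changed little. LHCB4.3 AAACT was at 0.603 in Col and 0.526 in mta on 283 and 258 reads, and the 3'UTR sites of LHCB1.2 were at 0.105 and 0.103, of LHCB1.5 at 0.16 and 0.159 and of LHCB1.1 at 0.128 and 0.149. Among sites with a Col fraction of at least 0.1, which leaves out rises from a lower start such as the LHCB5 coding site TCAGT (0.0881 to 1 on 20958 and 23156 reads) and the LHCB4.3 3'UTR site TTACG (0 to 0.466), the largest rises were in a 5'UTR site AAAAA of PSAD1 (0.261 to 0.518), the PSBQ1 3'UTR site TTAGA (0.806 to 1), a 5'UTR site AGACA of LHCA6 (0.11 to 0.286), the PSBR coding site CAAGA (0.617 to 0.757 on 23129 and 23126 reads) and the LHCA5 site ATACC (0.865 to 1). Of these 5, only the LHCA6 site has a DRACH motif. The PSBS coding site TTAGC was at 1 in both genotypes.

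Transcript levels of the members moved little in mta. By limma on log2(TPM + 1) of the input libraries, 5 of 45 were higher (background 2.66%) and 1 lower (12.4%) at adjusted p under 0.05, and 40 of 45 had a positive difference, with a median of 0.187 against -0.14 for all genes. The members took 22.43% of all TPM in both Col libraries and 24.66% and 24.49% in mta. LHCA5 was at 192.9 and 184.3 TPM in Col and 254.7 and 250.9 in mta (log2 0.42, adjusted p = 0.0385), PETE2 at 5089 and 5102 against 6650 and 6757 (0.40, adjusted p = 0.0389) and LHCA3, of the photosystem I belt, at 4150 and 4155 against 5410 and 5304 (0.37, adjusted p = 0.0431). PSAK had 2870 and 2801 TPM in Col and 3641 and 3584 in mta (0.35), and PSAH2 1729 and 1775 against 2221 and 2238 (0.35). In each of the 5 the genotypes did not overlap.

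LHCB4.3 was the member that fell, from 125.9 and 129.9 TPM in Col to 96.24 and 98.44 in mta (log2 -0.39, limma adjusted p = 0.041), and LHCB1.4 was next with -0.23 (adjusted p = 0.0893). PSBR followed with -0.02 (adjusted p = 0.841). The member median hardly depended on the setting (0.166 to 0.191 in the limma fits), but the calls did. With replicates as a block or with any 1 replicate left out, 0 members and 0% of all genes were called. With a pseudocount of 0.1 (1.38% of all genes higher, 7.12% lower), without a filter on low values (0.604% and 2.8%) or in treated libraries (1.09% and 5.88%) 0 members were called, and with a minimum of 5 TPM 18 were higher (7.33%) and 2 lower (26%). edgeR on whole reads recovered from the TPM called 43 higher (background 16.3%) and 2 lower (14.6%), with a member median of 0.347.

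**Figure D5:**
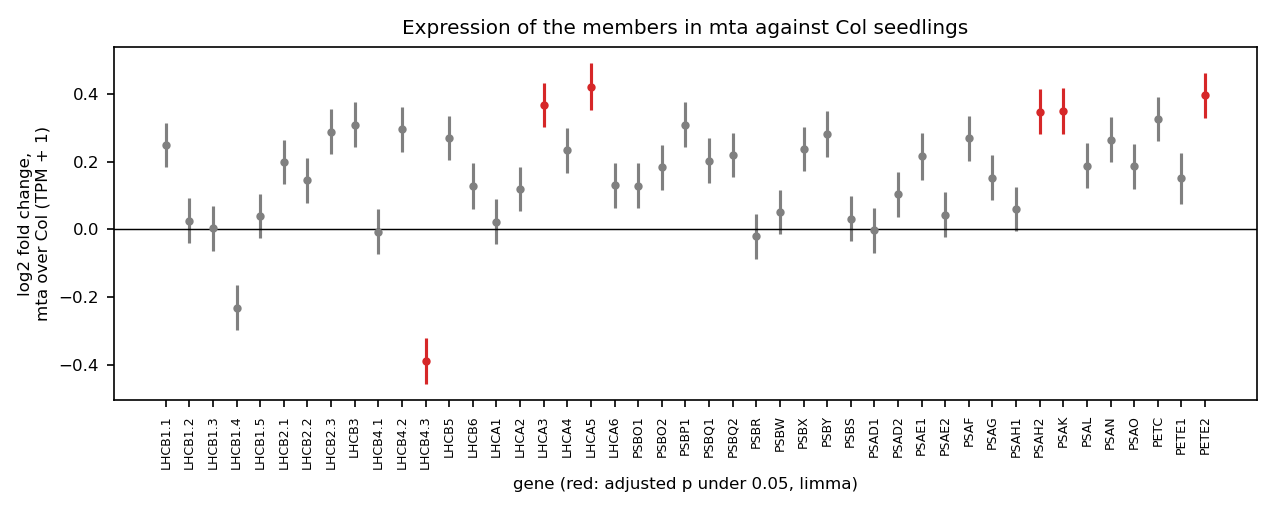
log2 difference in TPM plus 1 between mta and Col seedlings for each of the 45 genes, with bars of 1 standard error from limma and red for adjusted p under 0.05. Of the 45 points 40 lie above 0, the 5 red points above 0 are LHCA3, LHCA5, PSAH2, PSAK and PETE2, and the red point below is LHCB4.3.

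Neighbouring pathways also held calls in mta. In chlorophyll synthesis limma called 4 of 12 higher and 0 lower (background 2.66% higher and 12.4% lower). These were HEMA1 by 0.81 (limma adjusted p = 0.0247), GUN4 by 0.43, CHL27 by 0.39 and CHLH by 0.36, and FD2, the main leaf ferredoxin, was higher by 0.59. None of these was called with the block or with a replicate left out, and GUN4, CHL27 and CHLH were also lost with a pseudocount of 0.1 (limma adjusted p = 0.0518, 0.0548 and 0.0594), without a filter on low values and in treated libraries. By contrast, edgeR on recovered reads called each of them higher (background 16.3%). The log2 differences there were 0.98 for HEMA1, 0.75 for FD2, 0.59 for GUN4, 0.55 for CHL27 and 0.52 for CHLH. None of the 8 regulators passed the limma test. In the edgeR fit GLK1 (0.43), GLK2 (0.33), PIF1 (0.54), PIF4 (0.47) and CCA1 (0.17, adjusted p = 0.046) were called higher. HY5 (-0.32), PIF3 (0.17) and COP1 (0.17) were not called there. Markers of other organs moved at the same time: leaf markers summed to 40130 and 40330 TPM in Col and 51930 and 51980 in mta (2 of 3 higher), root markers to 2406 and 2458 against 2131 and 2157 (2 of 3 lower) and seed markers to 34.96 and 34.89 against 22.69 and 20.47 (3 of 4 lower), with none at 0. Their part in the members' differences was not tested, nor was that of age: mta seedlings were of day 8, the labels give no day for Col, and the methods give day 7 for seedlings without naming this set.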

How the data were processed

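Per the paper's methods, the authors processed reads with the m6A-SACseq pipeline on TAIR10 and calibrated m6A fractions with spike-in probes, with a counting tool and version not given in the sources used here. The deposited tissue table holds raw counts per gene and library. The deposited mta table holds TPM by the authors, and values under 50 reads were whole multiples of 1 read (100% within 0.05). The deposited site tables hold a read depth (a count) and an m6A fraction per site, with replicates pooled by the authors.

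The 18 input libraries of the 9 tissues were fitted together with edgeR 4.0.16 (filterByExpr, trimmed-mean scaling, quasi-likelihood test, R 4.3.3), and p-values were adjusted by Benjamini-Hochberg over 21805 genes. A call needed an adjusted p under 0.05 and a fold of at least 2. Genes averaging 1 TPM or more were tested with limma 3.58.1 after a log2(TPM + 1) transform, with no fold minimum, and this scale understates changes of low genes. Alternatives were DESeq2 1.42.0, library totals, no filter, treated libraries, a replicate block, no fold minimum, each replicate left out and, added after the data were seen, levels with trimmed-mean scaling. Scripts were tested on simulated data. Replicates had a chi-square of 1.09 to 1.64 per degree of freedom between them in input libraries and 1.16 to 5.76 in treated libraries, above sampling noise. The methods call them biological replicates without saying which plants each came from, and p-values measure the spread between these samples. Same-numbered replicates were not shown to pair (correlations of -0.0221 to 0.0484 over 36 pairs of tissues). Precision of fractions is limited by the depth given, and no interval was computed for calibrated values.

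The members and lists were chosen with earlier results of these data known. By a rule, values are given for the 3 members with the largest and the 3 with the smallest fold in a comparison, members called against the direction of most, families whose copies peak in different tissues, all members called in mta, the 12 sites with the highest mean fraction among those in most tissues, and the 5 largest drops and rises in mta. PSBS and PETE2 in leaves, PSAD1 in seed and the summed fractions of single genes were chosen after their values were seen. RefSeq TAIR10.1 gave sequences, and 45 of 45 members matched its promoter table.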

Additional observations from a re-analysis of the deposited data

How the results depend on the processing

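Leaving out each replicate in turn kept the counts of called members between 45 and 45 (all tissues, root against shoot, seed against silique and seed against the other 8), 20 and 22 (cauline against rosette leaf) and 14 and 15 (shoot against seedling). Against the other 8 tissues the ranges were 44 to 44 higher and 0 to 1 lower (seedling), 32 to 35 (shoot), 36 to 40 (root), 44 to 44 (rosette leaf and stem), 44 to 45 (cauline leaf), 24 to 27 (flower) and 27 to 28 (silique), and against the other 6 they were 0 to 2 higher and 1 to 2 lower (seedling), 10 to 13 (shoot), 42 to 43 (rosette leaf), 12 to 15 and 2 to 2 (cauline leaf), 1 to 2 (stem), 30 to 31 (flower) and 1 to 1 and 22 to 25 (silique), and 0 to 0 in mta. Treated libraries gave 18 in shoot, 4 in flower and 10 in silique against the other 8, and 1 in stem against the other 6. Without a fold minimum the counts were 44 in flower and silique against the other 8, 40 in cauline against rosette leaf, 41 in shoot against seedling and, against the other 6, 24 higher and 10 lower in seedling, 44 in shoot, 39 higher and 6 lower in cauline leaf, 34 in stem and 43 lower in silique. Library totals gave 0 lower in seedling and 38 in flower against the other 8, 13 in cauline against rosette leaf and, against the other 6, 3 in seedling, 7 in shoot, 5 in cauline leaf, 1 in stem, 9 in flower and 15 in silique, and the median of all genes became -0.812 for rosette leaf against the mean of the other 6. DESeq2 gave 2 in seedling against the other 6.

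Counts that moved little in a setting are not listed here, and with the replicate block this held for all tissue counts. In mta the block gave 0 higher and 0 lower, as with a pseudocount of 0.1, no filter or treated libraries, while a minimum of 5 TPM gave 18 and 2 (7.33% and 26% of all genes) and edgeR on recovered reads 43 and 2 (16.3% and 14.6%). The numbers were not shown to pair samples (r = 0.0587 between Col and mta). DESeq2 was not run for mta. Sites above a fraction of 0.05, whether or not they had the calling mark, numbered 341 in seedling, 332 in shoot, 186 in root, 326 in rosette leaf, 338 in cauline leaf, 329 in stem, 334 in flower, 331 in silique and 69 in seed, and with a Col fraction of 0.2 or more 0 coding sites were lower. Among the members named by the rule for a comparison, signs changed only in those with differences near 0. The other members were not followed for this. LHCB1.5 in cauline against rosette leaf went to -0.101 (DESeq2), -0.072 (treated) and -0.104 to 0.102 (a replicate left out), LHCB4.3 there to -0.262 (treated), LHCB1.4 in shoot against seedling to -0.042 (DESeq2), -0.045 (treated) and -0.014 to 0.114 (a replicate left out), LHCB4.3 there to -0.015 (DESeq2) and -0.122 to 0.258 (a replicate left out). Against the other 6, library totals took LHCA6, PSBR and PSAE2 in shoot to 0.215, 0.218 and 0.213 and LHCB4.3 in rosette leaf to -0.631, which went to -0.005 without a filter and to -0.026 to 0.037 with a replicate left out. PSBR in mta was 0.1398 by edgeR. The causes were not tested.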
